A study of Homo sapiens with 32 samples.

Results

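The YPEL (Yippee-like) genes are a family of 5 human genes, YPEL1, YPEL2, YPEL3, YPEL4 and YPEL5, and all 5 were found by symbol among the 19023 genes of the deposited count table. The members were chosen by symbol, and the family was selected on its measured RNA and footprint levels at the serum times against 0 h, known from earlier results of these data. Its levels against starved cells are therefore given as a description. Whether steps between serum times also entered the choice is not known. The cells were RPE-1, an immortalised human line derived from retinal pigment epithelium, labelled wild type and grown as a single line. All of them had first spent 18 h without serum. They were collected at that point (0 h) or after 5 h, 10 h or 15 h of serum, and each time has 4 RNA-seq libraries and 4 Ribo-seq libraries, which count footprints, the stretches of mRNA that ribosomes shield from digestion. Cells left unfed for the further hours are not among the samples, so the effect of serum and that of time alone cannot be told apart.

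Yippee proteins are small zinc-binding proteins found from yeast to humans, first described in Drosophila. YPEL1 to YPEL4 are close paralogs of one another, while YPEL5 is more distant and stands nearer to the fly protein. In human cells YPEL3 is known as a p53 target that slows growth and can bring on senescence, and YPEL5 binds RANBP9 and belongs to the CTLH ubiquitin ligase, an assembly that marks proteins for degradation. A footprint count reflects both how much mRNA a gene has and how many ribosomes sit on it.

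The total count per library was 595851 to 1107470 in RNA-seq and 2851423 to 9901322 in footprints, so a single count was worth far less in footprints and low genes were measured there with less error. Levels are in CPM, counts scaled to library size with TMM factors within each assay, and comparisons between genes use CPM per kilobase of the deposited coding length. Of the 11 listed markers of retinal pigment epithelium, 4 had at least 10 counts over the RNA libraries at 0 h and 2 had none. Their summed level was 76.4 to 88.6 CPM at 0 h and 24.6 to 40.7 CPM at 5 h, then 30.9 to 61.8 CPM at 10 h and 33.3 to 43.5 CPM at 15 h. Summed RNA of 11 proliferation genes was 718 to 948 CPM at 0 h and 271 to 443 CPM at 5 h, then 2945 to 3840 CPM at 10 h and 5185 to 6288 CPM at 15 h, and its part in the changes below was not tested. In bulk samples like these, fewer expressing cells and less RNA per cell cannot be told apart. Levels in CPM are relative to the other genes of a library, so changes in total RNA or total footprints per cell are not measured.

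YPEL3 (ENSG00000090238, chr16:30092314-30096213 in GRCh38), the growth-restraining member, was well expressed in starved cells and low at every serum time. Its promoter is shown so that it can be set beside those of YPEL5 and YPEL2. YPEL5 had fallen less by 5 h, while YPEL2, like YPEL3, was already low in footprints at 5 h. The RefSeq window (GRCh38.p14, chr16:30096164-30096463, minus strand) runs from 250 bases before the start of transcription to 50 bases into the gene, and capitals mark the letters of a forkhead motif and of an inverted CCAAT box:
YPEL3: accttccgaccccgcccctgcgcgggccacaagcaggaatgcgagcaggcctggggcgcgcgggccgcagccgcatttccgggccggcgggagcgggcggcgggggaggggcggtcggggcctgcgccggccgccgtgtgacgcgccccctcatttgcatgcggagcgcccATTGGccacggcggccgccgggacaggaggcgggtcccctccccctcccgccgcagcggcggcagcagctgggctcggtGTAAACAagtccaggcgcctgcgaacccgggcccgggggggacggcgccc

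In RNA-seq the 4 libraries of starved cells had 44.2, 36.5, 45.4 and 48.5 CPM of YPEL3. At 5 h they had 8.52, 8.91, 3.49 and 8.56 CPM, at 10 h 2.03, 6.66, 3.09 and 4.46 CPM, and at 15 h 1.04, 1.85, 3.83 and 1.03 CPM. Every library with serum lay below every starved library, while neighbouring serum times overlapped. These levels rest on 137 counts over the libraries at 0 h and on 25 at 5 h, 16 at 10 h and 7 at 15 h. The mean at 5 h was 16.9% of the starved mean, that at 10 h 9.30% and that at 15 h 4.44%. On the log2 scale the RNA change was -2.54 ± 0.30 at 5 h, -3.34 ± 0.32 at 10 h and -4.46 ± 0.37 at 15 h against 0 h (SE from edgeR, n = 4 each). At 15 h this was the 9th lowest of the 8775 RNA changes, against a median of -0.04 over all genes tested.

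Footprints of YPEL3 followed the same course with many more counts. The libraries had 30.7, 35.6, 24.5 and 29.4 CPM at 0 h, then 2.90, 3.31, 3.66 and 4.69 CPM at 5 h and 4.30, 3.10, 2.27 and 2.98 CPM at 10 h. At 15 h they had 2.53, 2.19, 1.55 and 2.12 CPM. The starved libraries again stood clear of all others, and the 5 h and 10 h libraries overlapped. The log2 change was -3.02 ± 0.15 at 5 h, -3.24 ± 0.15 at 10 h and -3.86 ± 0.17 at 15 h against 0 h, which is 8.10-fold, 9.46-fold and 14.5-fold lower. Most of the distance had thus been covered at the first serum time.

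YPEL5 (ENSG00000119801, chr2:30147007-30160533), the CTLH-associated member, was the most abundant of the family at every time and in both assays. Its promoter window (chr2:30146757-30147056, plus strand) holds neither of the motifs capitalised above:
YPEL5: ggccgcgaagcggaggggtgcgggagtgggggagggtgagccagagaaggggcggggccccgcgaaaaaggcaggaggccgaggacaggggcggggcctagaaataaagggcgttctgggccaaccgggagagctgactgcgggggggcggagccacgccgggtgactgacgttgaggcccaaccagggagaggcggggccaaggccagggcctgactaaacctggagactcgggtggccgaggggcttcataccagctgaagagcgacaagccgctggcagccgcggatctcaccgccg

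RNA of YPEL5 was 60.9, 86.6, 56.7 and 69.1 CPM at 0 h and 42.6, 53.5, 36.1 and 36.4 CPM at 5 h. It was 15.2, 23.8, 17 and 18.7 CPM at 10 h and 14.6, 14.8, 14.1 and 15.5 CPM at 15 h. The libraries of 0 h, 5 h and 10 h did not overlap one another, and those of 15 h overlapped the lower end of the 10 h range. The log2 change against 0 h was -0.70 ± 0.19 at 5 h, -1.87 ± 0.21 at 10 h and -2.22 ± 0.22 at 15 h (SE from edgeR).

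In footprints YPEL5 had 111, 116, 105 and 115 CPM at 0 h, 53.2, 55.8, 56.5 and 59.8 CPM at 5 h, 29.1, 26.9, 30.9 and 25.7 CPM at 10 h, and 22.3, 24, 27.8 and 25.1 CPM at 15 h. The first 3 times were cleanly separated, and 10 h and 15 h overlapped. The mean was 50.3% of the starved level at 5 h, 25.1% at 10 h and 22.1% at 15 h. On the log2 scale this was a course in steps, where YPEL3 had covered most of its log2 distance by 5 h. The footprint changes were -0.99 ± 0.06, -1.98 ± 0.07 and -2.16 ± 0.07 on the log2 scale at 5 h, 10 h and 15 h against 0 h.

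**Figure D1:**
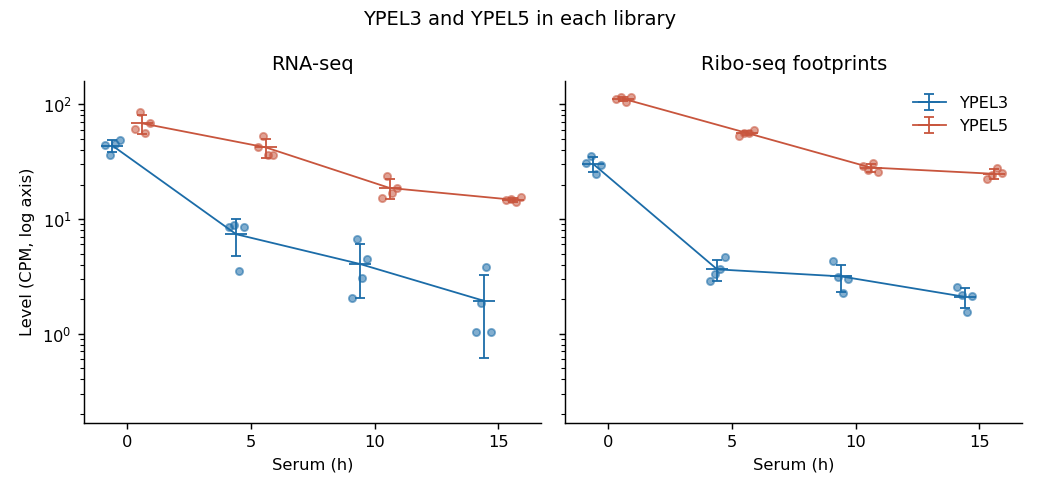
Levels of YPEL3 and YPEL5 in RNA-seq (left) and footprints (right) against hours of serum, in CPM on a log axis; each point is a library and bars are mean ± SD of 4 libraries. YPEL3 footprints drop to 2.90 to 4.69 CPM by 5 h, while YPEL5 footprints pass through 53.2 to 59.8 CPM at 5 h and 25.7 to 30.9 CPM at 10 h.

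A gene was called when its p from edgeR's quasi-likelihood test, with Benjamini-Hochberg adjustment over the whole table, was under 0.05. Only YPEL3 and YPEL5 had enough counts to be tested in RNA, and YPEL2 joined them in footprints; YPEL1 and YPEL4 passed in neither assay. In RNA both tested members were called lower against 0 h at 5 h, where 16.7% of all genes were, at 10 h, where 21.5% were, and at 15 h, where 25.4% were. In footprints the 3 tested members were called lower at 5 h (background 40.5%), at 10 h (background 39%) and at 15 h (background 39.6%). YPEL3 in RNA and YPEL2 in footprints passed the filter on low counts only through their starved libraries and so had to differ, and nothing is read from these counts.

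The steps between serum times compare no starved library, and they were tested. The starved libraries still entered the filter on low counts and the estimate of spread. Whether these steps also entered the choice of the family is not known, so their p-values carry that limit. With only the times compared in the filter and the fit, YPEL5 was tested in RNA, and YPEL3 and YPEL5 in footprints. YPEL5 fell again at 10 h against 5 h. In footprints its 10 h libraries, at 25.7 to 30.9 CPM, lay below its 5 h libraries, at 53.2 to 59.8 CPM, and the log2 change was -0.99 ± 0.07 (1.99-fold, adjusted p = 1.67e-15, edgeR, Benjamini-Hochberg). In RNA the same step was -1.16 ± 0.22 (2.24-fold, adjusted p = 0.000406, edgeR), with 15.2 to 23.8 CPM at 10 h against 36.1 to 53.5 CPM at 5 h. Both calls held with only these times fitted (adjusted p = 6.83e-12 in footprints and 0.00311 in RNA, edgeR). YPEL3 was not called in this step, at -0.22 ± 0.22 in footprints (adjusted p = 0.386, 95% interval -0.67 to 0.22) and -0.80 ± 0.42 in RNA (adjusted p = 0.213, interval -1.67 to 0.08). YPEL2 was not called in footprints either, at -0.13 ± 0.66 (adjusted p = 0.872, edgeR). A call for YPEL5 and none for YPEL3 does not show that the genes differ in this step. Their ratio, tested below, did not pass. YPEL5 was thus the 1 member called lower in each assay, where 9.56% of all genes were in RNA and 30.7% in footprints, and with so few members nothing is read from the count.

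At 15 h against 10 h the evidence was weaker and depended on single libraries. In RNA 0 of 2 tested members were called lower by edgeR, where 2.11% of genes were. The count was also 0 at an unadjusted p under 0.05 and with DESeq2. YPEL3 RNA changed by -1.12 ± 0.54 (adjusted p = 0.282, edgeR), from 7 counts at 15 h against 16 at 10 h, and YPEL5 RNA by -0.35 ± 0.25 (adjusted p = 0.472). In footprints YPEL3 and YPEL2 were called lower, where 20.2% of genes were, and no share is read from them since YPEL2 was tested only through its starved libraries. YPEL3 fell by 0.62 ± 0.25 on the log2 scale (adjusted p = 0.0423, edgeR), with 1.55 to 2.53 CPM at 15 h against 2.27 to 4.30 CPM at 10 h, so the groups overlapped. The call held with only these times fitted (adjusted p = 0.0378, edgeR). It was lost with DESeq2 (adjusted p = 0.0535) and when any of 6 libraries was left out, namely 10 h replicates 1, 2 and 4 and 15 h replicates 2, 3 and 4, with the adjusted p reaching 0.203. YPEL2 had 1 footprint count at 15 h against 9 at 10 h, and its call (adjusted p = 0.0334, edgeR) was lost without 10 h replicate 1 or 2 or 15 h replicate 2, 3 or 4. YPEL5 footprints were not called, at -0.18 ± 0.08 (adjusted p = 0.0761, edgeR), but were called without 10 h replicate 4 (0.0382) or 15 h replicate 3 (0.0337).

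**Figure D2:**
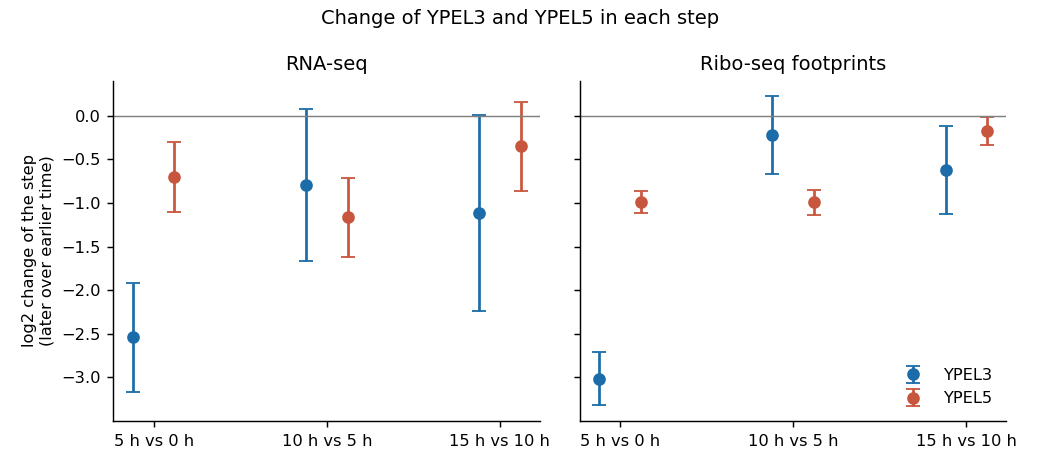
log2 change of each step, later over earlier time, for YPEL3 and YPEL5 in RNA-seq and in footprints; points are edgeR estimates and bars their 95% intervals. The step of 5 h against 0 h holds most of the drop of YPEL3 (footprints -3.02), while YPEL5 moves by -0.99 in each of the first 2 footprint steps.

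The balance within the family shifted towards YPEL5. Per kilobase, YPEL5 stood above YPEL3 by a median ratio of 1.37 in RNA at 0 h and 5.39 at 5 h, then 4.75 at 10 h and 10.8 at 15 h. In footprints the median ratio was 3.70 at 0 h and 15.8 at 5 h, then 8.48 at 10 h and 11.2 at 15 h. In both assays the starved libraries had the lowest ratios, with no overlap with any serum time. Among serum times no difference in the ratio passed a test that treats the libraries as independent. In footprints the mean log2 ratio was 3.16 at 10 h against 3.94 at 5 h, a difference of -0.79 with p = 0.0571 in a 2-sided exact permutation test and 0.229 after adjustment over 4 such tests. The other differences were 0.39 for 15 h against 10 h in footprints (p = 0.229, exact test), and -0.27 for 10 h against 5 h (p = 0.486) and 0.83 for 15 h against 10 h (p = 0.171) in RNA. With 4 libraries against 4 the smallest p this test can give is 0.0286.

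**Figure D3:**
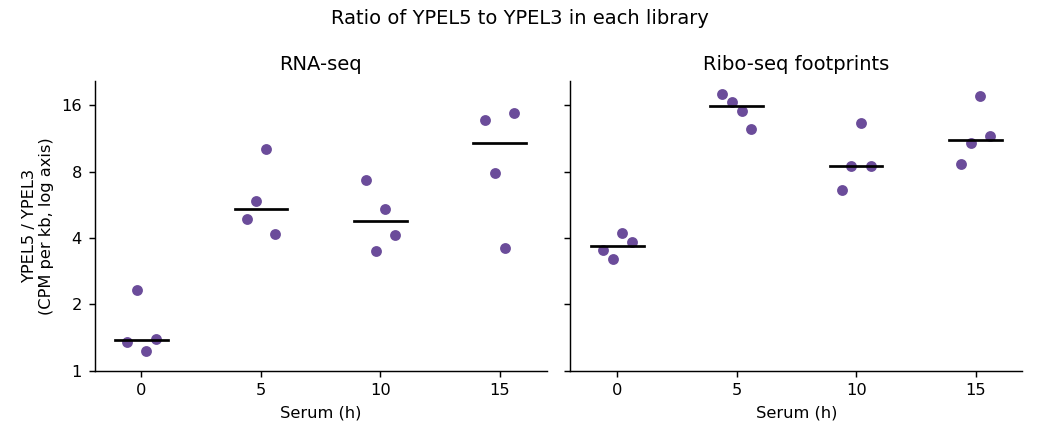
Ratio of YPEL5 to YPEL3 in CPM per kilobase, on a log2-spaced axis, in RNA-seq and footprints against hours of serum; points are libraries and bars medians of 4. The starved libraries sit lowest, at 1.23 to 2.32 in RNA and 3.20 to 4.21 in footprints.

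As a share of the family's summed level per kilobase in footprints, YPEL5 made up 75.6 ± 2.34% at 0 h and 93.3 ± 1.06% at 5 h, then 88.6 ± 2.70% at 10 h and 91.5 ± 2.23% at 15 h (SD, n = 4). YPEL3 made up 20.6 ± 1.81%, 6.11 ± 0.912%, 10.2 ± 2.47% and 8.02 ± 2.03% at those times. The sum over the 5 genes was 485 ± 33.1 CPM per kilobase at 0 h and 197 ± 11.5 at 5 h, then 104 ± 7.72 at 10 h and 88.4 ± 6.09 at 15 h. In RNA the sum was 388 ± 40.9 at 0 h and 168 ± 30.2 at 5 h, then 75.3 ± 20.1 at 10 h and 57.8 ± 5.24 at 15 h.

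The other members were scarce, with most of their footprint counts in starved cells. YPEL2 (ENSG00000175155, chr17:59331655-59401729) is a close paralog of YPEL1. Its promoter window (chr17:59331405-59331704, plus strand) also has an inverted CCAAT box, in capitals, and no forkhead motif:
YPEL2: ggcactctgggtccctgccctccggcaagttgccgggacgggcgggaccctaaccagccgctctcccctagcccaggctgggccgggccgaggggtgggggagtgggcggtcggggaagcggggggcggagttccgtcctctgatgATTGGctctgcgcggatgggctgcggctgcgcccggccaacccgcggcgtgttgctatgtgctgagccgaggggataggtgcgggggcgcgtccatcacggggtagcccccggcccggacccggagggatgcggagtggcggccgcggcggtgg

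YPEL2 had 15, 21, 20 and 20 footprint counts at 0 h, 4, 0, 1 and 4 at 5 h, 3, 3, 2 and 1 at 10 h, and 1, 0, 0 and 0 at 15 h. No serum library reached the lowest starved library, although every serum library except 15 h replicate 1 had a larger total count than any starved library. Over the pooled libraries the ratio to 0 h was 0.0834 at 5 h (95% exact interval 0.0368 to 0.167), 0.0756 at 10 h (0.0333 to 0.151) and 0.00870 at 15 h (0.000217 to 0.0499). These intervals cover counting error only. In RNA YPEL2 had 1, 7, 3 and 1 counts at 0 h and 2 counts in all at 5 h, then 0 at 10 h and 1 at 15 h. Against a floor of 3 counts over the group, RNA at 10 h was at least 4.79-fold lower than at 0 h, while the exact 95% interval allows 3.33-fold.

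YPEL4 (ENSG00000166793, chr11:57645087-57649912), known in mouse for a part in red blood cell membranes, had 8, 7, 3 and 8 footprint counts at 0 h and 0 in all libraries at 5 h. It had 1, 1, 1 and 0 at 10 h and 0, 0, 0 and 1 at 15 h, so every starved library exceeded every serum library. At 5 h it was at least 12.3-fold lower than at 0 h, against a floor of 3 counts over the group, while the exact 95% interval of the pooled ratio, which also counts the error at 0 h, allows 9.31-fold. At 10 h the pooled ratio was 0.0737 (95% exact interval 0.0143 to 0.240) and at 15 h 0.0254 (0.000620 to 0.155). In RNA there was 1 count in all 16 libraries, in a starved one, so a change of mRNA was not detectable at this depth. YPEL4 lies wholly inside the RefSeq span of MIR130AHG, a non-coding gene of the other strand. Whether counting used strand was not given, so reads of these genes cannot be told apart.

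YPEL1 (ENSG00000100027, chr22:21697536-21735794), which changes cell shape when expressed in mouse fibroblasts, had 2, 1, 1 and 4 footprint counts at 0 h and 1 count in all at each serum time. At 5 h the pooled ratio was 0.0881 (95% exact interval 0.00199 to 0.657). In RNA it had 7, 4, 1 and 3 counts at 0 h, 5 h, 10 h and 15 h. The ratio to 0 h was 0.536 at 5 h (0.115 to 2.11) and 0.360 at 15 h (0.0600 to 1.57), intervals that include no change. At 10 h it was 0.119 (0.00265 to 0.929), an interval of counting error only that lies below no change and rests on 1 count. The sources used here do not say how reads matching several of these close paralogs were assigned, so the split between YPEL1 and YPEL2 is uncertain. YPEL1 also shares 2480 bases of its span with PPIL2 on the other strand.

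**Figure D4:**
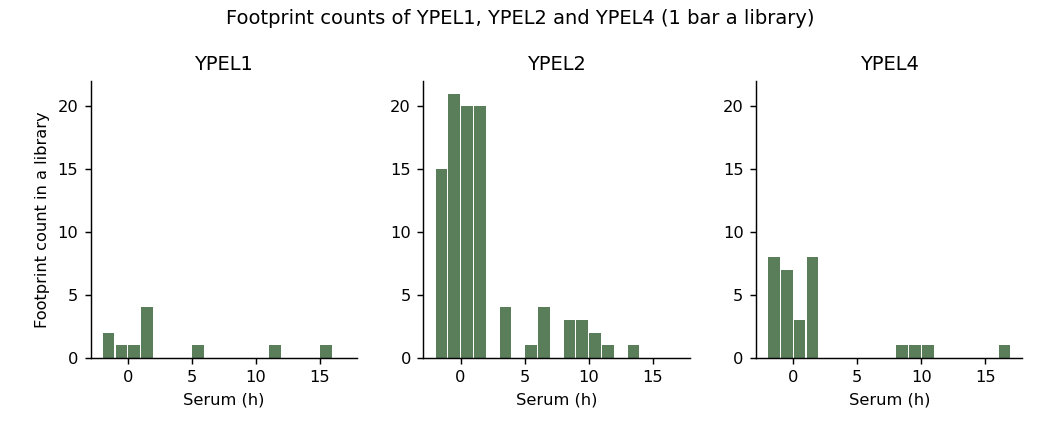
Footprint counts of YPEL1, YPEL2 and YPEL4 in each library against hours of serum; each bar is 1 library and the axis starts at 0. YPEL2 has 15 to 21 counts in starved libraries and at most 4 in any other, and YPEL4 has 3 to 8 and at most 1.

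Translational efficiency, the footprint change less the RNA change, was fitted as the assay-by-time interaction over all 32 libraries. For 0 of the 2 members measured in both assays was a change called by edgeR at any time, against 6.47% of 8736 genes at 5 h, 7.23% at 10 h and 11% at 15 h relative to 0 h. Between serum times 0.652% of genes were called for 10 h against 5 h and 0% for 15 h against 10 h. The members' count was also 0 in each of these comparisons at an unadjusted p under 0.05 and with DESeq2. For YPEL5 the log2 efficiency change was -0.32 at 5 h (95% interval -0.68 to 0.03), -0.21 at 10 h (-0.64 to 0.21) and -0.06 at 15 h (-0.53 to 0.40) against 0 h. For YPEL3, with few RNA counts, the intervals were wider, at -0.51 (-1.26 to 0.24), 0.02 (-1.04 to 1.08) and 0.54 (-0.60 to 1.69). As a level, the log2 ratio of mean footprint CPM to mean RNA CPM of YPEL5 was 0.71 at 0 h and 0.42 at 5 h, then 0.59 at 10 h and 0.75 at 15 h. In starved cells 83.3% of genes had a lower ratio than YPEL5, and 41.7% had a lower ratio than YPEL3.

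The genes most like each member were ranked by Pearson's r of log2 CPM over the libraries, with each assay centred on its mean; they share libraries and depth, and r is a description. Over 32 libraries and 8482 genes, YPEL5 was most like CALCOCO1 (r = 0.977), an autophagy receptor, SCD (0.972), the stearoyl-CoA desaturase, TSPAN9 (0.971), FDFT1 (0.970), the squalene synthase, and ALDH6A1 (0.969). Their footprint log2 changes at 15 h against 0 h were -2.90 for CALCOCO1, -3.36 for SCD, -2.27 for TSPAN9, -2.51 for FDFT1 and -1.78 for ALDH6A1. Genes like YPEL3 by the same measure included KLHDC8B (0.952), LRPAP1 (0.949), DDIT4 (0.948), an mTORC1 inhibitor, and MAN1B1 (0.945). Footprints of YPEL2, over 16 libraries, were most like those of DNMT3A (0.965), a DNA methyltransferase, CCDC28B (0.951), MOSPD1 (0.934), PKM (0.929) and NOL3 (0.928). YPEL2 had at most 4 footprint counts in any serum library, so its r rests largely on the contrast with starved libraries.

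Among the partners of YPEL5 in the CTLH ligase, some were lower in serum and some higher. The list held 10 subunits or interactors and NMNAT1, an NAD-synthesising enzyme known as a substrate, and all 11 were tested in footprints and 9 in RNA. In footprints 7 were called lower and 1 higher at 5 h (background 40.5% lower and 35.2% higher), 8 and 2 at 10 h (39% and 39.4%), and 4 and 2 at 15 h (39.6% and 40.1%). Their median log2 footprint change was -0.24, -0.26 and -0.13 at those times, against -0.07, -0.02 and -0.01 over all genes. In RNA 2 of 9 were called lower at 5 h and the other 7 not called (background 16.7% lower and 19.2% higher). At 10 h 3 were lower and 6 not called (21.5% and 23.3%), and at 15 h 2 were lower and 1 higher (25.4% in each direction).

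WDR26, a subunit through which the ligase takes up some substrates, changed most in footprints among the 11 at 15 h. Its footprint level was 209 ± 14.2 CPM at 0 h and 149 ± 5.77 CPM at 5 h, then 98.0 ± 6.99 CPM at 10 h and 94.0 ± 3.70 CPM at 15 h (SD, n = 4). Like YPEL5 it fell again between 5 h and 10 h, by 0.60 ± 0.06 on the log2 scale (adjusted p = 4.67e-12, edgeR). NMNAT1 footprints were lower by -1.08 ± 0.10, RMND5A, a RING subunit, by -0.85 ± 0.12 and GID4, a substrate receptor, by -0.86 ± 0.20 at 15 h against 0 h, all called by edgeR. ARMC8, a scaffold subunit, was higher by 0.77 ± 0.08 and MAEA, the other RING subunit, by 0.27 ± 0.06. RANBP9, which binds YPEL5 directly, was lower at 5 h (-0.47 ± 0.06) and at 10 h (-0.26 ± 0.06). Unlike YPEL5 it rose between serum times, by 0.22 ± 0.06 at 10 h against 5 h and 0.37 ± 0.05 at 15 h against 10 h, both called. At 15 h against 0 h it was not called (0.12 ± 0.06, adjusted p = 0.0617, edgeR). RANBP10 (-0.52 ± 0.11), MKLN1 (-0.24 ± 0.06) and RMND5B (-0.23 ± 0.10) were called lower in footprints at 5 h. GID8, called in RNA only, was lower there by -0.46 ± 0.17 at 5 h.

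**Figure D5:**
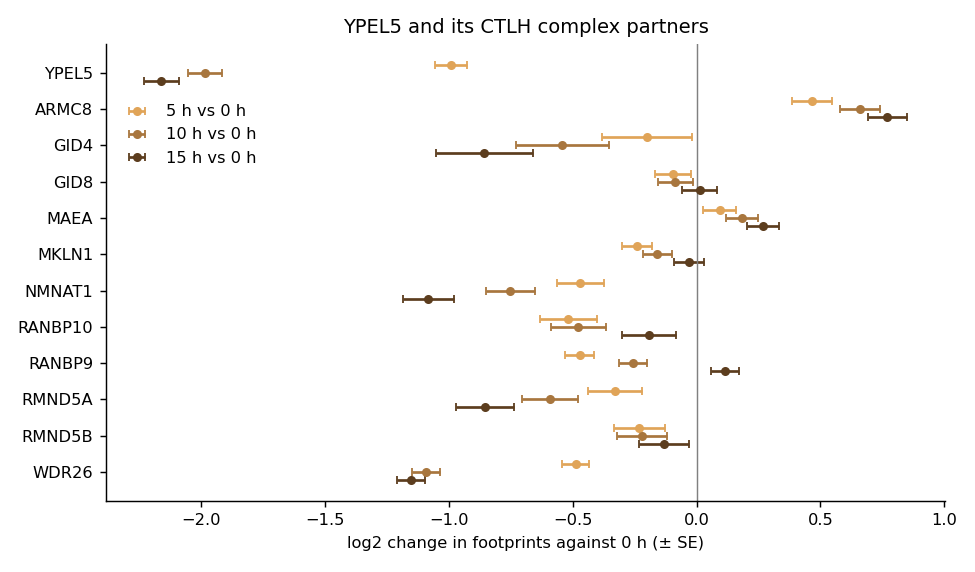
log2 change in footprints against 0 h of YPEL5 and of 11 CTLH genes (10 subunits or interactors and the substrate NMNAT1) at 5 h, 10 h and 15 h; points are edgeR estimates and bars their SE. YPEL5 reaches -2.16 and WDR26 -1.15 at 15 h, while ARMC8 lies above 0 at 0.77.

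Other genes of quiescence and of the FOXO transcription factors, which growth factors are known to switch off, were set beside the family from a list of 20 without YPEL genes, drawn up with earlier results known. In RNA at 15 h against 0 h, 13 of 15 tested were called lower and 1 higher (background 25.4% in each direction), with a median log2 change of -2.03 against -0.04 over all genes. In footprints 16 of 17 were lower and 1 higher (background 39.6% and 40.1%), with a median of -1.77 against -0.01. As with YPEL3 and YPEL2, a gene of this or another list that passed the filter only through starved libraries had to be lower. The list counts against 0 h are therefore a description. The largest were CDKN1C (-5.11 ± 0.15), an inhibitor of cyclin-dependent kinases, PIK3IP1 (-4.99 ± 0.14), a brake on PI3 kinase, and KLHL24 (-4.83 ± 0.15). In the step of 10 h against 5 h, 9 of the 17 fell and 2 rose in footprints (background 30.7% and 31%), and 5 of 15 fell and 1 rose in RNA (background 9.56% and 10.1%). At 15 h against 10 h, 1 of 15 fell in RNA and the other 14 were not called (background 2.11% lower and 3.81% higher), while in footprints 4 of 17 fell and 5 rose (background 20.2% and 20.8%). YPEL3 at -3.86 and YPEL5 at -2.16 in footprints at 15 h lay inside the range of this list. That range is wide, from a gene called higher down to CDKN1C, so nothing is read from it. YPEL2, at -6.23 with 1 count at 15 h, lay below it.

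The promoters were searched for 5 motifs on both strands. The forkhead motif was spelled GTAAACA. The E-box, a site of many helix-loop-helix factors, was spelled CACGTG. The CCAAT box was searched by the letters of its name. The TATA box, which positions the start of transcription in some genes, was spelled TATAAA. The GC box, bound by SP1 and its relatives, was spelled GGGCGG. Windows were found in RefSeq for 4 members. The forkhead motif lay in YPEL3 alone among them, at bases 1 to 7 of the transcript; 3.42% of all 35116 windows hold it. The inverted CCAAT box was at -79 to -75 in YPEL3 and -104 to -100 in YPEL2, and 34.6% of windows hold that box. YPEL2, YPEL3 and YPEL5 each had 3 GC boxes, which 45% of windows hold, and YPEL4 had a match to none of the 5. No member's window held an E-box (7.26% of windows) or a TATA box (11.5%), and no matches in them overlapped one another.

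In the list of quiescence and FOXO genes, 5 of 17 genes with a window held the forkhead motif, against 4.19% of all 27305 genes. These short stretches of 21 bases, on the strand of each gene, are shown to set them beside the YPEL3 site, with the motif in capitals, and MXI1 has a site at each of 2 starts (TGTTTAC is GTAAACA read on the other strand):
TXNIP: gctcctgGTAAACAaggaccg
MXI1: acctcgtTGTTTACcccgtgc
MXI1: gggagagGTAAACAaaccacg
BTG1: gtttattTGTTTACaagcgga
PIK3IP1: gagaggcTGTTTACcagaaca
TSC22D3: gctgaacTGTTTACagtccca
In footprints at 15 h against 0 h the log2 change was -1.85 ± 0.07 for TXNIP, -3.15 ± 0.18 for MXI1, -1.77 ± 0.05 for BTG1, -4.99 ± 0.14 for PIK3IP1 and -2.61 ± 0.12 for TSC22D3. A match of letters is a description and not a binding site. The list was drawn up partly of FOXO genes, so nothing is read from its share of forkhead motifs. With a window, 1 of 18 p53 targets, 1 of 11 proliferation genes and 1 of 7 retinal pigment epithelium markers held the motif. So did 0 of 9 CTLH genes, 0 of 4 epithelial and mesenchymal markers and 0 of 2 blood and endothelial markers.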

How the data were processed

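Per the submitters' processing notes, STAR 2.5.4a and featureCounts 1.5.1 were used with GRCh38; for annotation release, strand setting and reads shared by genes the sources used here give nothing. The deposited table holds raw counts per gene, whole numbers not normalised by the authors, in 32 columns, each matched to a sample by its label. Of its 19023 genes, 18905 were matched to a symbol. Deposited lengths were multiples of 3 in 96.46% of genes and are read as coding lengths.

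The family and gene lists were chosen with earlier results of these data known. Members were described in full, likeness by the 5 highest r per member (1 of those for YPEL3 is not reported here), CTLH genes where called, the quiescence and p53 lists by the 3 largest footprint changes at 15 h, and the proliferation and marker lists by counts and sums. Each assay was fitted in edgeR 4.0.16 (R 4.3.3) with TMM factors, filterByExpr by time and a robust quasi-likelihood fit over its 16 libraries with time as factor; 8775 genes passed in RNA, 10959 in footprints and 8736 in both. The procedure was tested on simulated data. Intervals of log2 changes use the fit's degrees of freedom; intervals of pooled counts are exact conditional binomial ones at 95%. The ratio test between paralogs was chosen after seeing the data. Labels call the replicates biological, with no word on separate cultures, so p-values measure the spread between these samples. Alternatives were RLE factors, no count filter, DESeq2 1.42.0, fits of only the times compared, a replicate block, TMM over all libraries together for efficiency, and leaving out each library. In RNA at 15 h against 0 h, deviations of libraries with the same number had r of 0.119 to 0.307 over genes in the 4 pairs. Libraries with different numbers had r of -0.394 to 0.398, so these values do not settle a pairing, and the labels state none. The replicate block changed no member's call there.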

Additional observations from a re-analysis of the deposited data

Results flagged for a closer look

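In RNA-seq at 5 h, replicate 3 had 3.49 CPM of YPEL3, far from the other 3 libraries at 8.52 to 8.91 CPM. The gap to its neighbour was 0.928 of the group's range, over the critical value of Dixon's test for 4 samples. The low value rests on 3 counts. This was the only one flagged among 18 groups of 4 libraries with at least 10 counts in all, and chance flags about 1 group in 20.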

How the results depend on the processing

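Against 0 h, every call of a tested member in RNA and footprints kept its direction and its side of the threshold under all alternatives run. With no count filter, YPEL1 and YPEL4 entered the footprint fit and 5 members were called at 5 h, 10 h and 15 h in place of 3. For footprints at 15 h against 10 h, the count of members called was 1 with DESeq2 and 1 when only those times were fitted, where YPEL2 was not tested, and it ran from 0 to 2 when a library was left out; YPEL3 without 10 h replicate 1 was at -0.44. The fall of YPEL5 at 10 h against 5 h was called in every fit. Values near 0 changed sign: YPEL2 footprints at 10 h against 5 h ran from -0.45 to 0.26 without 1 library. The efficiency change of YPEL3 at 10 h against 0 h was -0.030 with TMM over all libraries and ran from -0.21 to 0.40 without 1 library. That of YPEL5 ran from -0.20 to 0.063 at 15 h against 0 h and from -0.019 to 0.23 at 10 h against 5 h. The cause was not tested.

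Replicate numbers passed the pairing check, r over 0.1 in every same-number pair, in 1 of 10 comparisons. In that comparison libraries of different numbers reached an r of 0.398. Of the best matches, 11 of 20 in RNA and 10 of 20 in footprints were with the library's own number, where chance gives 5. Within numbers the footprint log2 ratio of YPEL5 to YPEL3 was lower at 10 h than at 5 h in 4 of 4 (-1.44 to -0.18) and higher at 15 h than at 10 h in 4 of 4 (0.33 to 0.46). Each gave p = 0.125 in an exact sign-flip test added after seeing the data, the smallest it can give with 4 pairs. The replicate block left all counts of members called as they were (2 in RNA and 3 in footprints at 15 h against 0 h). Over all genes it gave 1170 calls in place of 519 for RNA at 15 h against 10 h, where leaving out a library gave as few as 333. For efficiency it gave 1048, 1018 and 1542 in place of 565, 632 and 958 at 5 h, 10 h and 15 h against 0 h, 146 in place of 57 at 10 h against 5 h (115 with DESeq2), and 8 in place of 0 at 15 h against 10 h, where the other settings gave 0 to 4. Depth limits YPEL1, YPEL2 and YPEL4 in RNA, with at most 12 counts at any time.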

Other observations

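p53 targets, the group that YPEL3 is known to belong to in human cells, were divided. Of 22 listed, drawn up with earlier results known and sharing CCNG1 and SESN1 with the quiescence list, 21 were tested in footprints. At 15 h against 0 h, 13 were called lower and 6 higher (background 39.6% and 40.1%), with a median log2 change of -0.76. The 3 largest changes were in TP53INP1 (-2.64 ± 0.12), a stress-induced regulator of autophagy, AEN (2.19 ± 0.13), an apoptosis nuclease, and FDXR (-1.88 ± 0.11), the ferredoxin reductase of mitochondria. From 10 h to 15 h, 14 of 21 rose in footprints and the other 7 were not called by edgeR (background 20.8% and 20.2%). In RNA 2 of 19 tested rose in that step and 17 were not called (background 3.81% higher and 2.11% lower). YPEL3 footprints changed by -0.62 in that step, a call lost with DESeq2 and without any of several single libraries. A link to p53 was not tested.

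Of the other lists, proliferation genes had 11 of 11 tested called higher in footprints at 15 h against 0 h (background 40.1%), and 7 lower and 2 higher at 5 h against 0 h (background 40.5% and 35.2%). Of 11 retinal pigment epithelium markers listed, 7 were tested in footprints and all 7 were called lower at 15 h against 0 h (background 39.6%). In RNA 3 were tested, and 2 were called lower and 1 was not called (background 25.4% lower). The filter on low counts can pass a gene on its starved libraries alone, and such a gene has to be lower with serum. Nothing is read from these marker counts. Epithelial and mesenchymal markers summed to 26635 to 27205 CPM in footprints at 15 h against 19133 to 22016 CPM at 0 h. They were divided, with 4 of 6 tested called higher and 2 lower (background 40.1% and 39.6%). Their summed RNA was 7708 to 12072 CPM at 15 h and 9755 to 13074 CPM at 0 h, and these ranges overlapped. Blood and endothelial markers summed to 84.2 to 89.3 CPM at 15 h against 75.9 to 97.0 CPM at 0 h, with 2 of 6 at 0 counts in each group.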
